A study of Mus musculus with 2 samples.

Results

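The integrated stress response was described here through 10 genes in single-cell RNA-seq of mouse liver: the regulators Atf4, Ddit3, Atf3, Trib3 and Ppp1r15a, the effectors Asns, Chac1 and Sesn2, and the secreted hormones Fgf21 and Gdf15. The genes were selected on measured values, with their HKO over WT ratios in hepatocytes of these same libraries already known, so those ratios are given as a description and not as a test. All 10 were among the 32285 genes counted. They filled 11 rows, because Ddit3 is listed under 2 identifiers. The data were 2 libraries. WT came from wild-type littermates, and HKO came from mice in which a floxed miR-33 gene was removed by Cre recombinase under the albumin promoter, which is active in hepatocytes (the label reads AlbCRE). Both groups were male, received CD-HFD, a high-fat feed with no added choline that induces steatohepatitis, for 6 months from 8 weeks of age, and were fasted before the livers were taken. Each library was 1 pool of 3 livers, in which hepatocytes and sorted non-parenchymal cells had been mixed in equal numbers. Whether the WT littermates carried the floxed allele or Cre is not stated. Mir33 was not among the genes counted, so its deletion was not checked here. With 1 library per genotype there was no replicate, differences could not be weighed against variation among mice, and no p-value was computed. Intervals, given in brackets after a value, span 95% and hold the error of counting alone.

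In the integrated stress response, kinases that sense amino acid shortage, unfolded protein in the endoplasmic reticulum, heme shortage or viral RNA phosphorylate the translation factor eIF2. Bulk protein synthesis falls, while the mRNA of the transcription factor ATF4 is translated more, so that ATF4 activity is set largely at translation and its mRNA level reports it only in part. ATF4 and its partners switch on genes for amino acid supply, redox control and, under lasting stress, cell death. In the liver the same response drives FGF21 and GDF15, hormones that act on metabolism and appetite.

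Promoter motifs were searched in all members and were found in part of them. The composite element bound by C/EBP and ATF proteins, searched as TGATGNAAN on both strands, occurred in the promoters of 5 of the 10 members, Trib3, Atf3, Asns, Chac1 and Fgf21, and in 3.95% of all 32851 promoters of RefSeq (GRCm38.p6, 250 bases before to 50 after the start site). The stricter form TGATGCAAT, which lies within the first, occurred in that of Fgf21 alone among the members and in 0.192% of all. The 5 promoters with the element are shown 5′ to 3′ on the gene's strand, with the matched letters in capitals.
Fgf21, chr7:45615441-45615740 (- strand): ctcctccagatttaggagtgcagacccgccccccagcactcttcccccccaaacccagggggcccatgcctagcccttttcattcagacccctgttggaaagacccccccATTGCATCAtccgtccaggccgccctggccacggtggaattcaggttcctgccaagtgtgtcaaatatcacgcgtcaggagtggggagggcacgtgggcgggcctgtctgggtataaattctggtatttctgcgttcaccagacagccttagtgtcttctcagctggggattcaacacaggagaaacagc
Chac1, chr2:119350992-119351291 (+ strand): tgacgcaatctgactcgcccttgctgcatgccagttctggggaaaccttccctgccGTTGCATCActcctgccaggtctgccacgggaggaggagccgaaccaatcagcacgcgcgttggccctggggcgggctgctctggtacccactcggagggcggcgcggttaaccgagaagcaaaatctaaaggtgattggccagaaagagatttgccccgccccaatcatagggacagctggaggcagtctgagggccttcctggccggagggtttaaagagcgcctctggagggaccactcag
Atf3, chr1:191183284-191183583 (- strand): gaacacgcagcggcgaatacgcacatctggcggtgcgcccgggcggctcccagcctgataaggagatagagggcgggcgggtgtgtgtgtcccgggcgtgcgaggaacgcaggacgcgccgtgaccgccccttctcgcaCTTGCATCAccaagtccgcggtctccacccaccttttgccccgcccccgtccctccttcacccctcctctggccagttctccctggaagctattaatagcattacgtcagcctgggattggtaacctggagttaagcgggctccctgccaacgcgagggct
Asns, chr6:7693160-7693459 (- strand): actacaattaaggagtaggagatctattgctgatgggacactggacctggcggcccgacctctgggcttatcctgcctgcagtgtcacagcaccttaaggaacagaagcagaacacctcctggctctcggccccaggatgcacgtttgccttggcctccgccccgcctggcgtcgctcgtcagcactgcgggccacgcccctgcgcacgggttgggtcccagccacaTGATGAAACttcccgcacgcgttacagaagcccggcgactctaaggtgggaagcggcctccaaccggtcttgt
Trib3, chr2:152344011-152344310 (- strand): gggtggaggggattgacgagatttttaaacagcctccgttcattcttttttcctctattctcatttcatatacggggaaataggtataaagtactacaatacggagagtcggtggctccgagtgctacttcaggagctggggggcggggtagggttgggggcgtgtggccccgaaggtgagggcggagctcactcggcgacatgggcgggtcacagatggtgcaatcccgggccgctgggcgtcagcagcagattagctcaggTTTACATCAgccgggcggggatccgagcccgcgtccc
The element began 140 bases before the start site in Fgf21, 194 in Chac1, 111 in Atf3 and 23 in Asns, and at base 14 of the transcript in Trib3. The RefSeq start of Atf3 lies inside the gene span given below, which begins at an upstream start. The core CCACG of an element of the unfolded protein response occurred in 6 members, Atf4, Asns, Chac1, Sesn2, Ppp1r15a and Fgf21, against 32.8% of all promoters. The cAMP element TGACGTCA occurred in Ppp1r15a alone among the members, where it began 12 bases before the start site, against 1.79% of all promoters. Neither Gdf15, with 2 listed promoters, nor Ddit3 held any of these 4 motifs in this window.

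The microRNA removed in HKO hepatocytes is shown with its seed, bases 2 to 8, in capitals, because the members' 3′ UTRs were searched with it.
mmu-miR-33-5p, chr15:82198127-82198147 (+ strand): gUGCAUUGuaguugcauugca
For each gene 1 annotated 3′ UTR was searched, that of the protein-coding transcript with the longest coding sequence (GENCODE M21). These ran from 71 bases in Ppp1r15a to 1684 bases in Sesn2. In them 0 of the 10 members held a 7-base or 8-base match to this seed. The 3′ UTRs of other transcripts were not searched. The members are spread over the genome (GRCm38): Atf4 on chromosome 15 (80255184 to 80257541), Ddit3 on chromosome 10 (127290774 to 127296288), Trib3 (152337422 to 152344032) and Chac1 (119351229 to 119354381) on chromosome 2, Atf3 on chromosome 1 (191170296 to 191218039), Asns on chromosome 6 (7675169 to 7693254), Sesn2 on chromosome 4 (132492032 to 132510501), Ppp1r15a (45522916 to 45526268) and Fgf21 (45613886 to 45615490) on chromosome 7, and Gdf15 on chromosome 8 (70629393 to 70632456). The second Ddit3 row is a short overlapping gene model (127290829 to 127293753) with 0 UMIs in both libraries. A UMI is a tag that counts 1 captured RNA molecule, and how reads in the shared exons were assigned is not stated.

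Hepatocyte-like barcodes were those in clusters that did not reach the marker rule of another cell type, with a depth that was 2 or more times the most frequent depth in the same library. There were 1832 in WT, with a median of 20540 UMIs, and 3513 in HKO, with a median of 4225. All 8 hepatocyte markers were detected in both, with a summed level of 77630 and 67230 CPM (UMIs per 1000000 UMIs of the class). Markers of other cells were also detected. Their summed levels were 422 and 322 CPM for the neutrophil, 315 and 198 CPM for the cholangiocyte and 75.7 and 71.5 CPM for the erythroid list, and at most 23.7 CPM for each of the other lists. In 2 clusters of the class a marker of another cell type was among the 10 leading genes and no hepatocyte marker was. Cluster 1 (73 WT, 36 HKO barcodes) was led by immunoglobulin genes and held B and plasma markers at 276 and 4751 CPM, beside hepatocyte markers at 85210 and 78130 CPM. Cluster 14 (268 WT, 8 HKO) was led by Hbb-bs and held erythroid markers at 152 and 87.0 CPM, beside hepatocyte markers at 93710 and 74370 CPM. Without these clusters, an alternative chosen after seeing the data, the HKO over WT ratio described below was 0.370 for Gdf15, 0.525 for Atf3, 0.620 for Fgf21, 0.8215 for Atf4 and 1.18 for Trib3. Most other barcodes, 19986 in WT and 10074 in HKO, held hepatocyte RNA at the depth of droplets with free RNA. In hepatocyte-like barcodes the members together held 30372 UMIs in WT and 7721 in HKO, or 642 and 311 CPM. Gdf15 and Atf3 made up 80.0% of these in WT and 71.9% in HKO. Levels are counted at the 3′ end and were not scaled to transcript length, so they rank captured molecules only.

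Of the transcription factors, Atf3 had the most UMIs and Ddit3 the fewest, and all were lower in HKO. Atf4, the central activator of the response, stood at 55.3 CPM in WT (2616 UMIs) and at 39.8 CPM in HKO (988 UMIs), and HKO over WT was 0.720 (0.669 to 0.775). Ddit3, which encodes CHOP, a factor tied to cell death under lasting stress, had 18.9 and 15.5 CPM, a ratio of 0.819 (0.725 to 0.924). Atf3, a stress-induced partner that also responds as an immediate early gene, had 183 and 110 CPM from 8638 and 2739 UMIs, a ratio of 0.605 (0.579 to 0.631). These 3 ratios had intervals under 1.

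The feedback genes differed from each other. Ppp1r15a encodes GADD34, which brings a phosphatase to eIF2 and ends the translational block. WT held 951 UMIs (20.1 CPM) and HKO 290 (11.7 CPM), which put HKO over WT at 0.581 (0.508 to 0.664). Trib3, a pseudokinase that restrains ATF4 and CHOP, was level, at 3.82 CPM from 181 UMIs and 3.75 CPM from 93. Its ratio of 0.980 (0.754 to 1.27) had an interval that spans 1, and was under 1 in 10 of 17 alternatives.

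The effectors had few UMIs. Sesn2, which dampens mTORC1 signaling, had 5.81 and 3.10 CPM from 275 and 77 UMIs, a ratio of 0.534 (0.409 to 0.690). It was 0.8175 with barcodes thinned to 1000 UMIs (9 and 14 UMIs of Sesn2) and 0.822 (0.416 to 1.55) in those with 30 to 50% mitochondrial UMIs. Chac1, which degrades glutathione, had 3.15 and 2.58 CPM from 149 and 64 UMIs, a ratio of 0.819 (0.601 to 1.11) whose interval spans 1. It was 2.04 (0.734 to 5.59) in barcodes with 20 to 30% mitochondrial UMIs, from 10 and 9 UMIs. From 30 to 50% it was 0.3105, from 12 and 2 UMIs. Asns, asparagine synthetase, was barely detected in this class, with 3 UMIs in WT and 6 in HKO. Its ratio of 3.81 (0.814 to 23.6) rests on those counts and has no readable direction.

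Both hormones were lower in HKO, and Gdf15 had the lowest ratio of all members. For Fgf21, 1013 UMIs in WT came to 21.4 CPM and 265 in HKO to 10.7 CPM, and HKO over WT was 0.499 (0.434 to 0.572), an interval that overlaps those of Sesn2 and Ppp1r15a. Gdf15, the most abundant member in both libraries, stood at 331 CPM (15652 UMIs) in WT and at 113 CPM (2815 UMIs) in HKO, where it was 0.343 (0.329 to 0.357) of the WT level. Their UMIs did not come from a few barcodes in WT, where the barcode with most held 1.28% of Fgf21 and 0.799% of Gdf15. In HKO the barcode with most held 6.79% of Fgf21, or 18 UMIs, and 0.782% of Gdf15.

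**Figure D1:**
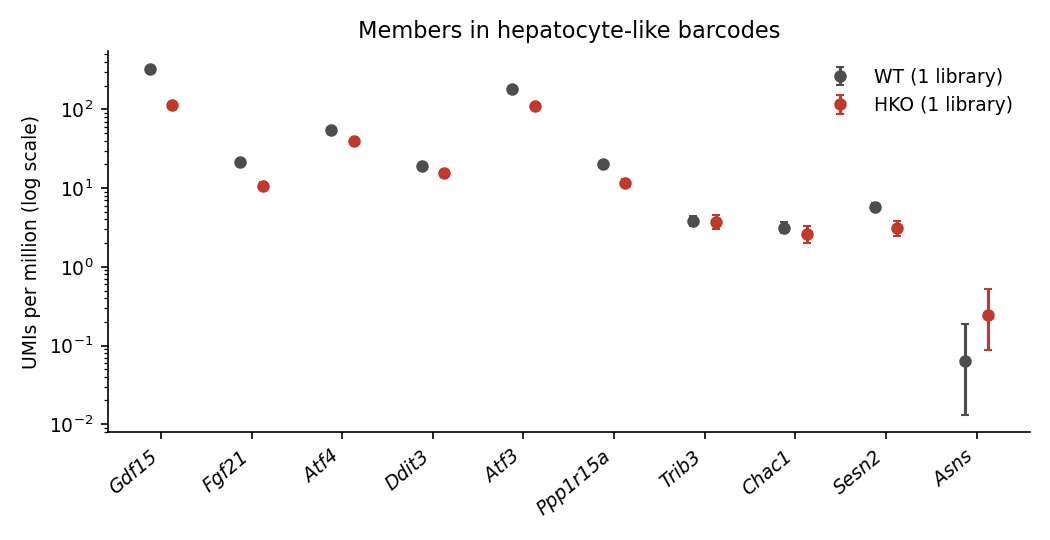
Level of each member in hepatocyte-like barcodes of the WT and HKO libraries, in CPM on a log axis, with exact Poisson intervals (95%) as bars. Gdf15 stood at 331 in WT and 113 in HKO, while Trib3 stood at 3.82 and 3.75 and the intervals of Asns were wide.

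Across the class, 53.7% of the 7068 genes with a mean of at least 10 CPM had a ratio under 1, and 1.00% had a ratio of 0.5 or less. The 6 members at that level, Atf4, Ddit3, Atf3, Ppp1r15a, Fgf21 and Gdf15, all had a ratio under 1, and 2 of them, Fgf21 and Gdf15, were at 0.5 or less. Fgf21, at 0.499, lay just inside this limit and was over it in 13 of 17 alternatives, such as 0.503 with doublets kept, 0.545 without a depth minimum and 0.620 without clusters 1 and 14, while Gdf15 was over it in 1. Nothing is read from these counts, since the ratios were known when the members were chosen. The median log2 ratio of the 6 was −0.75, against −0.02 over all 7068 genes, and that of all 10 members was −0.60. A lower ratio than that of Gdf15 was held by 0.141% of the genes, lower than Fgf21 by 0.976%, lower than Ppp1r15a by 1.94%, lower than Atf3 by 2.33%, lower than Atf4 by 7.33% and lower than Ddit3 by 17.4%.

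**Figure D2:**
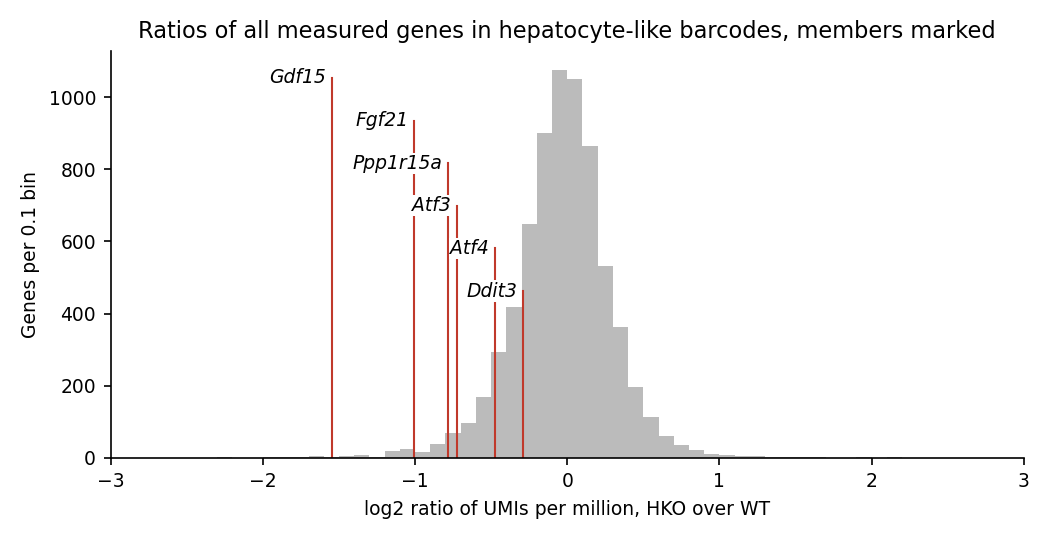
Histogram of the log2 ratio of CPM, HKO over WT, for the 7068 genes with a mean of at least 10 CPM in hepatocyte-like barcodes, in bins of 0.1, with values beyond 3 put in the end bins. The red lines mark the 6 members at that level, which lie between the far left tail (Gdf15) and the left shoulder (Ddit3).

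The share of hepatocytes with a member depended on depth, so each barcode was also thinned to 1000 nuclear-encoded UMIs, which left out 0 WT and 27 HKO barcodes. Before thinning, Gdf15 UMIs were present in 91.2% of the WT and 36.4% of the HKO hepatocyte-like barcodes, Atf3 in 73.1% and 26.8%, Atf4 in 60.2% and 21.4%, and Fgf21 in 32.4% and 6.09%. After thinning, 28.4% (26.4 to 30.6) of WT barcodes and 11.8% (10.7 to 12.9) of HKO barcodes held Gdf15. The WT share was the higher one both before and after thinning.

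At equal depth the other members were in few barcodes. Atf3 was found in 16.9% (15.2 to 18.7) of WT and 8.86% (7.94 to 9.86) of HKO barcodes. Atf4 was found in 5.73% (4.71 to 6.90) and 4.68% (4.00 to 5.43), with intervals that overlap. Fgf21 was found in 2.13% and 1.38%, Ddit3 in 2.35% and 1.41%, and Ppp1r15a in 1.47% and 1.12%, again with intervals that overlap for each. Trib3, Chac1, Sesn2 and Asns were each in under 0.6% of the barcodes of either library. For Asns, 0 of 1832 thinned WT barcodes held a UMI, where 3 had held one before thinning. At this depth that allows up to 0.201% of barcodes with a UMI (upper bound of the exact interval), which sets no limit on cells that express the gene. Any member was found in 46.6% (44.3 to 48.9) of WT and 26.1% (24.7 to 27.6) of HKO barcodes, a ratio of 0.561, and 2 or more members in 10.9% and 3.99%.

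Barcodes of other kinds set the background for these shares. At the same 1000 UMIs, 12.2% (7.61 to 18.2) of WT and 4.38% (2.91 to 6.31) of HKO T and NK-like barcodes held Gdf15. The median depths of these barcodes were 5632 and 2147 UMIs. Of the barcodes of free RNA depth, 20.1% (19.5 to 20.7) held it in WT and 12.1% (10.8 to 13.5) in HKO. The HKO hepatocyte-like share of 11.8% was thus no higher than that of free hepatocyte RNA in its own library, whereas the WT share was. For Atf3 the shares at free RNA depth were 7.24% in WT and 7.95% in HKO, against 16.9% and 8.86% in hepatocyte-like barcodes, with intervals that are apart in WT and overlap in HKO. In CPM, HKO hepatocyte-like barcodes held more Atf3 (110, interval 106 to 114.5) than HKO barcodes of free RNA depth (77.6, 72.2 to 83.3). Atf4 was in more WT barcodes of free RNA depth, 7.53% (7.17 to 7.91), than of hepatocyte-like depth, 5.73%, and in HKO in 4.78% against 4.68%. Ddit3 was in 1.89% of WT and 2.14% of HKO barcodes of free RNA depth, against 2.35% and 1.41%. In HKO only 2240 of 10074 barcodes of free RNA depth held 1000 nuclear-encoded UMIs. Fgf21 was detected in 2.06% and 1.12% of barcodes of free RNA depth, in 1 of 164 WT T and NK-like barcodes and in 0 of 616 HKO ones, which at this depth allows up to 0.597% of barcodes with a UMI. T and NK-like barcodes held Atf4 in 8.54% (WT) and 8.60% (HKO) and Ppp1r15a in 4.88% and 4.71% of barcodes, point values above the hepatocyte-like shares of the same library, with intervals that overlap in WT and not in HKO.

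**Figure D3:**
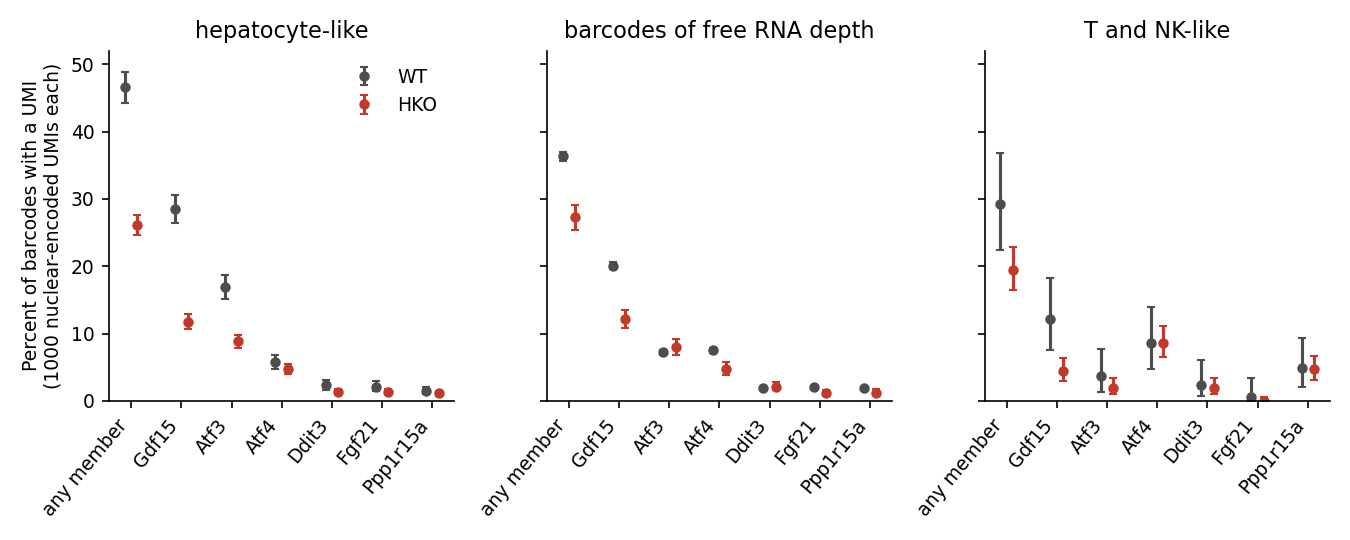
Percent of barcodes with at least 1 UMI of any member or of the named member, after thinning to 1000 nuclear-encoded UMIs each, in 3 classes of barcodes of the WT and HKO libraries, with exact binomial intervals (95%). WT hepatocyte-like barcodes stand highest for Gdf15 (28.4%) and Atf3 (16.9%), while HKO hepatocyte-like barcodes (11.8% for Gdf15) lie near the HKO barcodes of free RNA depth (12.1%).

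Positive hepatocytes had a mitochondrial share, the percent of UMIs from mitochondrially encoded genes, close to that of negative ones in WT and somewhat higher in HKO. In WT the median was 12.1% (quartiles 2.18 and 26.0) in barcodes with any member and 11.7% (2.52 and 20.1) in those without, a difference of 0.448 percentage points. In HKO it was 11.8% (2.29 and 27.4) with and 9.05% (1.72 and 17.6) without, a difference of 2.72 points. The ranges of positive and negative barcodes overlapped for the most part in both libraries. For Atf3 alone the medians with and without were 14.7% and 11.5% in WT and 13.3% and 9.47% in HKO. For Gdf15 they were 12.7% and 11.6% in WT and 12.4% and 9.43% in HKO. Atf4 lay the other way, with 8.89% in positive and 12.1% in negative WT barcodes, and 9.03% and 9.78% in HKO. These differences depended on which barcodes were kept: with a limit of 20% on the mitochondrial share, the difference for any member was −3.60 points in WT and 0.0303 points in HKO.

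The level of Gdf15, Atf3 and Fgf21 was lowest in the middle, from 10 to 20% mitochondrial UMIs, in both libraries. In CPM of nuclear-encoded UMIs, Gdf15 in WT was 438 in barcodes under 5%, 322 from 5 to 10%, 265 from 10 to 20%, 469 from 20 to 30% and 470 from 30 to 50%. In HKO it was 139, 133, 98.9, 145 and 256 in the same order. The HKO level was below the WT level in every bin, with ratios between 0.310 and 0.546 whose intervals lie under 1. Atf3 ran from 150 (10 to 20%) to 353 (30 to 50%) in WT and from 91.9 to 251 in HKO, with ratios between 0.423 and 0.735. Atf4 in WT was 73.6 under 5%, 53.37 from 10 to 20%, 64.05 from 20 to 30% and 51.5 from 30 to 50%. It thus rose from 20 to 30% but was lowest in the last bin. Its ratio in that last bin was 0.991 (0.761 to 1.28), against 0.681 (0.598 to 0.774) under 5%. From the lowest to the highest bin, Fgf21 was 29.64, 22.97, 16.45, 25.47 and 29.17 in WT. In HKO it was 11.44, 17.29, 8.718, 15.44 and 22.74. Fgf21 had its lowest ratio, 0.386 (0.295 to 0.498), under 5%, and its highest, 0.779 (0.528 to 1.13), from 30 to 50%. From 10 to 20%, Ddit3 was lowest in WT only (17.68), and Sesn2 in both libraries (5.484 and 2.523, from 67 and 22 UMIs). The bins held 222 to 596 WT and 335 to 1352 HKO barcodes. Median depth differed between bins, from 16050 to 28130 UMIs in WT and from 2631 to 10720 in HKO. It was highest from 10 to 20%, where Gdf15, Atf3 and Fgf21 were lowest. The part of depth in these levels was not tested.

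**Figure D4:**
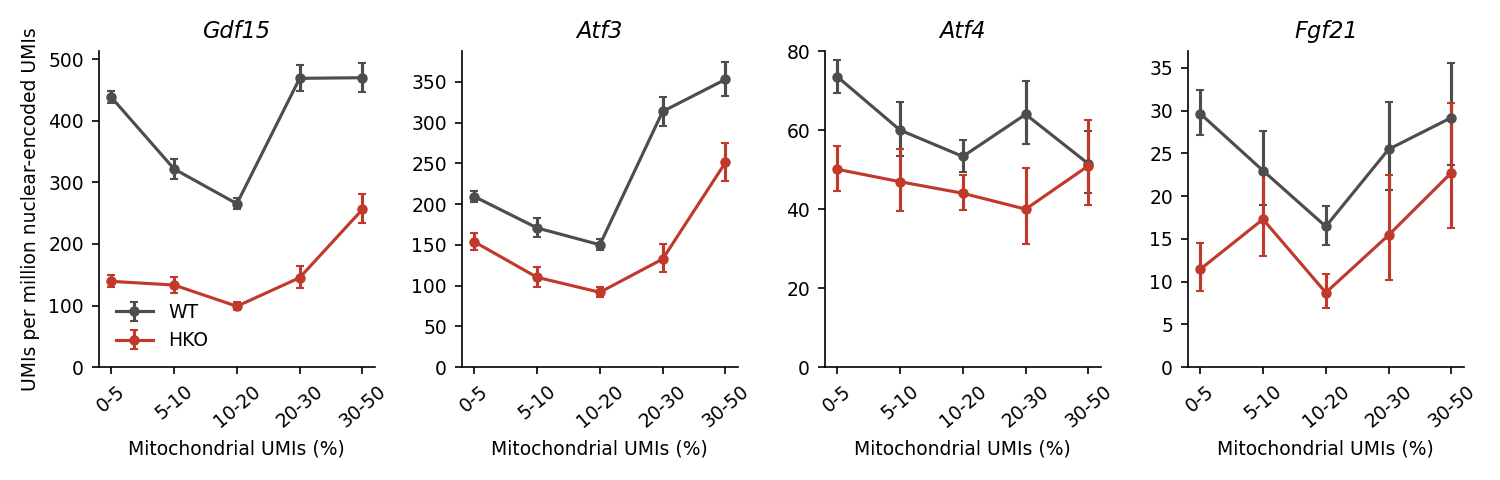
Level of 4 members in hepatocyte-like barcodes by bin of mitochondrial share, in CPM of nuclear-encoded UMIs, for the WT and HKO libraries, with exact Poisson intervals (95%). Gdf15, Atf3 and Fgf21 are lowest from 10 to 20% in both libraries. Gdf15 and Atf3 are high at 30 to 50% (470 and 353 in WT). The HKO points lie under the WT points in every bin, with intervals that overlap in some bins of Atf4 and Fgf21.

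Members also varied between the clusters of hepatocyte-like barcodes, which were formed with these genes among the rest, so the levels are a description. Clusters 5, 8 and 13 each held at least 100 barcodes of both libraries. Cluster 13, led by the nuclear RNAs Malat1 and Neat1 among others, with 134 WT and 164 HKO barcodes and a median mitochondrial share of 1.5%, had the highest Atf3 of the 3, at 776 nuclear-encoded CPM in WT and 620 in HKO. It also had the highest Gdf15, at 720 and 353. Cluster 8, led by mitochondrial genes, with 490 and 516 barcodes and a median share of 31.1%, had 390 and 301 for Atf3 and 561 and 275 for Gdf15. Cluster 5, which held the most hepatocyte-like barcodes of each library (605 and 1113), had 120 and 72.8 for Atf3 and 234 and 88.2 for Gdf15. Fgf21 had another order, with 14.2 and 8.61 in cluster 13, 26.0 and 17.0 in cluster 8 and 17.9 and 10.96 in cluster 5. Within all 3 clusters Gdf15 was lower in HKO, with ratios of 0.491 (0.444 to 0.541) in cluster 13, 0.490 (0.452 to 0.532) in cluster 8 and 0.378 (0.352 to 0.405) in cluster 5. In the other clusters, with fewer than 100 barcodes of a library, Gdf15 ratios lay between 0.183 and 0.875. They were 0.638 (0.527 to 0.775) in cluster 6 and, with intervals that span 1, 0.875 (0.677 to 1.125) in cluster 2 (185 and 97 UMIs), 0.676 (0.360 to 1.16) in cluster 14 and 0.248 (0.0820 to 1.23) in cluster 4. Atf3 had ratios of 0.799, 0.771 and 0.608 in clusters 13, 8 and 5, with intervals under 1. In the smaller clusters its intervals span 1. Its ratios were 1.10 in cluster 6, 1.19 in cluster 2 and 1.22 in cluster 19, and from 0.471 to 0.6525 in clusters 0, 1, 7 and 14. Ddit3 was higher in HKO in cluster 13, with 29.7 in WT, 43.8 in HKO and a ratio of 1.48 (1.05 to 2.06), and Ppp1r15a had 1.03 (0.728 to 1.43) there. The libraries did not fill the clusters alike: cluster 14 held 268 WT and 8 HKO barcodes, cluster 6 held 97 and 913, and cluster 4 held 1 and 310. The WT barcodes of cluster 14 carried 4500 of the 15652 Gdf15 UMIs of WT, at 423 nuclear-encoded CPM.

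**Figure D5:**
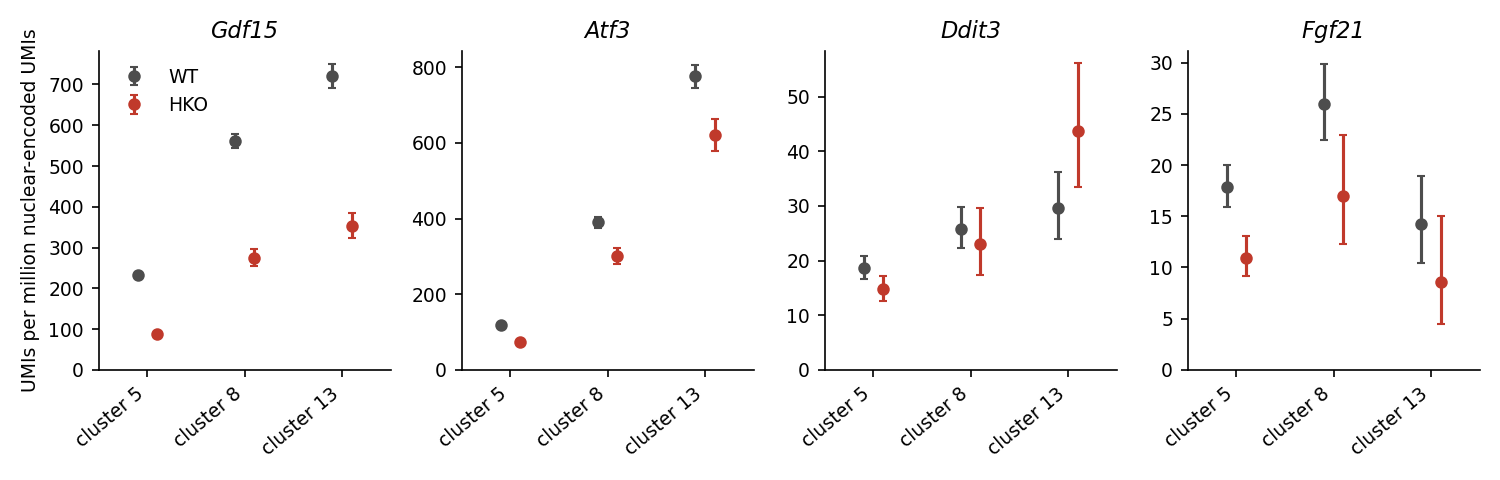
Level of 4 members in the 3 clusters with at least 100 hepatocyte-like barcodes of each library, in CPM of nuclear-encoded UMIs, with exact Poisson intervals (95%). Atf3 and Gdf15 rise from cluster 5 to cluster 13 in both libraries, Fgf21 does not, and among these 4 members HKO lies above WT only for Ddit3 in cluster 13 (43.8 against 29.7).

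Position in the lobule was read from fixed pericentral and periportal genes, and each library was split by that score into periportal, middle and pericentral groups of equal size. Cyp2e1, a pericentral gene of the score, went from 280.5 in the periportal to 4299 nuclear-encoded CPM in the pericentral group in WT, and from 186 to 5828 in HKO. The groups are ranges and not cell types, and 504 WT and 941 HKO barcodes lay within 0.1 SD of a limit. The summed members in WT were nearly level, with 736 nuclear-encoded CPM in the periportal, 723 in the middle and 746 in the pericentral group. In HKO they were 308, 376 and 423. The ratio of the sum, in which Gdf15 and Atf3 weigh most, was lowest in the periportal group, at 0.419 (0.401 to 0.437), against 0.520 (0.496 to 0.545) and 0.567 (0.544 to 0.591). Atf3 had 260 CPM in periportal WT barcodes and 111 in HKO, a ratio of 0.427 (0.397 to 0.458), against 0.748 (0.696 to 0.803) pericentrally. Gdf15 had ratios of 0.306, 0.363 and 0.403 from the periportal to the pericentral group. Not all members had this order. Ddit3 ran from 0.876 (0.710 to 1.08) periportally over 1.03 to 0.684 (0.5505 to 0.846) pericentrally, and Atf4 was lowest in the middle group, with 0.789, 0.606 and 0.858. The periportal groups had the highest median mitochondrial share, 15.7% in WT and 14.3% in HKO, and in HKO also the highest median depth, 7043 UMIs against 2993 and 3736. The part of either in these values was not tested.

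Detection of members in the same barcode differed between pairs. Among thinned barcodes, Gdf15 was detected in 35.0% of those with Atf3 and 27.1% of those without in WT, and in 21.04% and 10.9% in HKO. Fgf21 was detected in 1.94% of the Atf3-positive and 2.17% of the Atf3-negative barcodes in WT, and in 1.62% and 1.35% in HKO. For Ddit3 the shares in barcodes with and without Gdf15 were 1.73% and 2.59% in WT and 0.976% and 1.46% in HKO. Further pairs had the higher share beside the other member, from few barcodes. Fgf21 was in 9.30% of barcodes with and 1.96% of those without Ddit3 in WT (4 of 43 with it) and in 4.08% and 1.34% in HKO (2 of 49). In HKO, Atf3 was in 23.1% of barcodes with and 8.70% of those without Ppp1r15a (9 of 39 with it). The variance of the thinned counts over their mean, which is 1 for evenly spread molecules, was 1.28 and 1.45 for Atf3 and 1.23 and 1.22 for Gdf15. For the other members with UMIs it lay between 0.977 and 1.10, which leaves little room to order barcodes by them.

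Genes most like the members were taken as those highest in barcodes with 2 or more members (199 WT, 139 HKO) relative to barcodes with none (979 and 2575), by the smaller fold of both libraries, among genes with a mean of at least 10 CPM. The first 10 were Gm31356, Sik2, Mid1, Pde4b, Sel1l3, Wipf3, Baiap2l1, Cnst, Fosb and Gm20528. Baiap2l1 rested on the most UMIs, with 528 and 137 CPM in WT and 504 and 127 CPM in HKO, folds of 3.83 and 3.94. Other folds rested on few UMIs in the barcodes with 2 or more members. These were 16 (WT) and 5 (HKO) for Gm31356, 9 and 5 for Cnst, 8 and 7 for Mid1 and 7 and 7 for Sel1l3. The order of the genes is thus loose. Sik2, a kinase that responds to cAMP, had folds of 4.99 and 5.64 from 16 and 18 UMIs in the barcodes with 2 or more members. Pde4b, a cAMP phosphodiesterase, had folds of 4.46 and 4.99, from 17 UMIs in each library. Fosb, an immediate early gene, had folds of 3.73 and 4.38, and its HKO over WT ratio in hepatocyte-like barcodes was 1.02. Gm20528 is also among the leading genes of cluster 13. The barcodes with 2 or more members had a median mitochondrial share of 13.1% in WT and 12.0% in HKO, against 11.7% and 9.05% in those with none.

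Outside hepatocytes, Ppp1r15a UMIs exceeded what free hepatocyte RNA would give in macrophage-like, endothelial-like and T and NK-like barcodes of both libraries, while those of Fgf21 did not clearly exceed it in any of the 3. That RNA was estimated from the UMIs of Alb in each class, at the ratio of each member to Alb in hepatocyte-like barcodes (called scaled here). A second estimate, added after seeing the data, took that ratio from the barcodes of free RNA depth, since these do not follow the first for Gdf15 and Atf3. Ppp1r15a had 103 UMIs in WT and 273 in HKO macrophage-like barcodes, where scaled hepatocyte RNA came to 7.16 and 2.99 and the second estimate to 6.84 and 2.79. Its levels there, 149 CPM (122 barcodes) and 223 CPM (259 barcodes), were above those of hepatocyte-like barcodes of the same libraries, 20.1 and 11.7 CPM. Atf3 had 139 and 217 CPM in macrophage-like barcodes, from 96 and 265 UMIs against 65.1 and 28.3 scaled, or 28.1 and 18.0 by the second estimate. Its ratio there was 1.56 (1.23 to 2.00), but 0.429 when barcodes marked as doublets were kept and the class held other barcodes. Atf3 was highest in the few barcodes with mixed cholangiocyte and endothelial markers (10 WT, 26 HKO), at 1857 and 1529 CPM. There 288 and 379 UMIs stood against 7.54 and 6.02 scaled. In barcodes with mixed macrophage and monocyte and dendritic markers (34 and 86) Atf3 was at 424 and 406 CPM. In T and NK-like barcodes Ppp1r15a was at 36.6 CPM (WT) and 56.4 CPM (HKO), and in endothelial-like barcodes 38.2 and 56.7 CPM. Scaled hepatocyte RNA came to 9.20 of 36 WT and 5.99 of 88 HKO UMIs in the former, and to 42.6 of 98 and 18.3 of 105 in the latter, so the share it could make up differed between the libraries. Its HKO over WT ratio in these 3 classes was 1.5 (1.19 to 1.90), 1.54 (1.04 to 2.34) and 1.49 (1.12 to 1.98), opposite in direction to its 0.581 in hepatocyte-like barcodes. In barcodes with mixed endothelial and stellate markers it was 99.6 and 128 CPM, a ratio of 1.29 (0.948 to 1.77). Further classes went both ways, with intervals that span 1. The ratio was 0.885 in mixed endothelial and macrophage and 0.830 in mixed macrophage and monocyte and dendritic barcodes. It was 0.629 in mixed T and NK and monocyte and dendritic and 0.493 in neutrophil-like barcodes. It was 1.09 in mixed cholangiocyte and endothelial and 2.93 in B and plasma-like barcodes. Libraries differed in depth in each class, with medians of 3260 and 1726 UMIs in macrophage-like and 4591 and 2830 in endothelial-like barcodes.

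Atf4 was higher in CPM in T and NK-like and macrophage-like barcodes than in hepatocyte-like ones in both libraries. It had 94.4 and 84.6 CPM in T and NK-like barcodes, from 93 and 132 UMIs against 25.3 and 20.4 scaled, or 38.4 and 21.03 by the second estimate, with a ratio of 0.896 (0.682 to 1.18). In macrophage-like barcodes it had 83.7 and 84.2 CPM, from 58 and 103 UMIs against 19.7 and 10.2 scaled, or 29.9 and 10.5 by the second estimate, with a ratio of 1.01 (0.722 to 1.41), or 0.442 with doublets kept. Asns had 2 and 0 UMIs in T and NK-like barcodes and 0 and 5 in endothelial-like ones, 5 and 1 in barcodes of free RNA depth, and at most 2 in each further class outside hepatocytes, too few to read.

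Gdf15 in T and NK-like barcodes had 105 UMIs in WT and 69 in HKO, and scaled hepatocyte RNA came to 151 and 58.1, or 107 and 51.3 by the second estimate. In endothelial-like barcodes it had 564 and 164 UMIs against 700 and 178 scaled, or 494 and 157. Its ratios of 0.415 (0.302 to 0.568) and 0.403 (0.337 to 0.481) in these classes thus rest on counts within 1.5 times both estimates, and how much of them is free RNA was not tested. Macrophage-like barcodes of HKO held 135 Gdf15 UMIs against 29.0 scaled and 25.6 by the second estimate, and those of WT held 113 against 118 and 83.1. Barcodes with mixed endothelial and macrophage markers held 46 against 18.98 and 16.7 in HKO, and 42 against 36.6 and 25.8 in WT. Fgf21 had 46 and 13 UMIs in endothelial-like barcodes against 45.3 and 16.7 scaled, 11 and 3 in T and NK-like barcodes against 9.80 and 5.47, and 8 and 0 in macrophage-like barcodes against 7.63 and 2.73. In barcodes of free RNA depth, Gdf15 had 223 and 110 CPM and Atf3 75.4 and 77.6 CPM. Scaled by Alb, hepatocyte-like RNA would give 16200 WT and 1238 HKO UMIs of Gdf15 there, where 11417 and 1092 were counted. For Atf3 it would give 8939 and 1205, where 3862 and 768 were counted.

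The wider pathway was described by lists, chosen with earlier results of these data known, with genes named by a rule of the highest and lowest ratios. For comparison, 53.7% of all 7068 genes at 10 CPM were lower in HKO and 1.00% at least 2-fold lower, with a median log2 ratio of −0.02. Of 16 genes for eIF2 kinases, subunits of eIF2 and eIF2B and regulators of eIF2 phosphorylation, 14 reached 10 CPM. Of these 8 were higher and 6 lower in HKO. Their median log2 ratio was 0.095 and turned to −0.11 without a depth minimum. Eif2ak3, the kinase PERK of the endoplasmic reticulum, had 24.9 and 15.4 CPM, a ratio of 0.618 (0.549 to 0.694). Ppp1r15b, the constitutive partner of the eIF2 phosphatase, had a ratio of 0.623 (0.573 to 0.678), close to that of Ppp1r15a. Eif2ak2, the kinase PKR that binds viral RNA, was at 1.33 (1.17 to 1.51), and Eif2s2, a subunit of eIF2 itself, at 2.01 (1.95 to 2.08).

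Of 35 other targets of ATF4 and CHOP, 16 reached 10 CPM, with 4 higher and 12 lower and a median log2 ratio of −0.26, or −0.11 when genes from 1 CPM were taken in. Gadd45a, a stress-induced gene of growth arrest, was at 0.603, Atf5 at 0.678 and Cebpb at 0.704, whereas Map1lc3b, an autophagy gene, was at 1.62 and Gpt2 at 1.36. Aminoacyl-tRNA synthetases had 5 of 17 genes higher and 12 lower, with a median of −0.14, or −0.33 without a depth minimum. Tars was at 0.697 (101 and 70.2 CPM) and Sars at 1.25 (45.2 and 56.5 CPM).

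The list of endoplasmic reticulum chaperones had the lowest median of the 9 lists, −0.81. It also held the sensors Atf6 and Ern1, the factor Xbp1 and the degradation genes Sel1l and Syvn1. In it 0 of 19 genes were higher and 19 lower, 7 of them by at least 2-fold, against 53.7% and 1.00% of all genes. Sdf2l1 was at 0.261 (0.219 to 0.309), Creld2 at 0.359 and Hyou1 at 0.360. The mitochondrial unfolded protein response had a median of −0.07, or −0.33 without a depth minimum, with 4 of 8 genes on either side, and the protease Lonp1 at 0.778 and Clpp at 1.03. Targets of p53, which also induces Gdf15 and Sesn2, had 1 of 8 genes higher and 7 lower, where 53.7% of all genes were lower, with Cdkn1a at 0.482 (84.5 and 40.7 CPM). Targets of PPAR-alpha, a regulator of Fgf21 in fasting, had 6 of 14 higher and 8 lower, with Ehhadh at 0.352 and Cpt1a at 1.38. The immediate early and dissociation list had 2 of 14 higher and 12 lower, a median of −0.48 and Zfp36 at 0.482, Nr4a1 at 0.484 and Dusp1 at 0.513. These genes respond to tissue digestion, as Atf3 does, and their part in the Atf3 values was not tested.

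Receptors for the hormones completed the pathway. Klb, the coreceptor that FGF21 needs, was at 52.9 CPM (WT) and 46.2 CPM (HKO) in hepatocyte-like barcodes, a ratio of 0.873 (0.813 to 0.936). Fgfr4 was at 0.786 and Fgfr2 at 0.823, while Fgfr1, the main partner of the coreceptor in fat and brain, was low, at 1.14 and 3.38 CPM, and higher in HKO, with a ratio of 2.97 (2.08 to 4.255). Gfral, the GDF15 receptor of the hindbrain, had 0 UMIs in both libraries in this class, and its partner Ret had 2 and 0.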

How the data were processed

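Single-cell 3′ libraries (10x Genomics, version 2 kit per the labels) of WT and HKO liver were analysed from UMI counts per gene and barcode. The deposited counts were whole numbers without normalization, made by the authors with Cell Ranger (7.1.0 per the file header). The submitters' processing notes also name mm10, R 3.0 and Seurat 3. The options of the counting step are not given in the sources used here. The tables held 30078 WT and 20000 HKO barcodes with 130451427 and 52563185 UMIs. Barcodes shared by both libraries were not analysed here. No per-sample column was left without a sample.

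Barcodes with at least 500 UMIs, 300 genes and at most 50% mitochondrial UMIs were kept. Scrublet (scanpy 1.11.5) marked 0 doublets by its own threshold, so the top-scoring 0.8% per 1000 barcodes were left out, 7019 in WT and 2664 in HKO. Counts scaled to 10000 and logged gave 2000 variable genes, 30 principal components, 15 neighbours and Leiden clusters at resolution 1 (igraph 0.11.9), without integration. Clusters were named from fixed marker lists, and a class needed 3 markers. The depth minimum of hepatocyte-like barcodes was 5141 UMIs in WT and 1626 in HKO, where the commonest depth (813) lies near the lowest depth in the table (770). CPM are summed UMIs per 1000000 UMIs of the class, with exact Poisson intervals. Ratios have exact conditional intervals and shares Clopper-Pearson intervals. Calculations ran in Python 3.11.15 (numpy 2.4.6, scipy 1.17.1) and were tested on simulated data. Genes were placed by GENCODE M21.

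The members and lists were chosen with earlier results of these data known. The rule for named genes took all members, the 3 highest and 3 lowest ratios of each list at 10 CPM, and the 10 genes most alike, with a pseudocount of 1 CPM. Genes under 10 CPM, Fgfr1, Gfral and Ret, were named after their values were seen. Alternatives changed depth minimum, doublets, mitochondrial limit, denominator, thinning and weighting. Within-cluster ratios, ratios without clusters 1 and 14 and the background from barcodes of free RNA depth were added after seeing the data.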

Additional observations from a re-analysis of the deposited data

Results flagged for a closer look

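Ppp1r15a and Atf3 were picked out because their HKO over WT ratio lay above 1 in a class other than hepatocytes, with an interval above 1, and below 1 in hepatocyte-like barcodes. With 1 library per genotype the difference between classes was not tested. The ratio of Ppp1r15a was 1.54 in T and NK-like, 1.49 in endothelial-like and 1.5 in macrophage-like barcodes, against 0.581 in hepatocyte-like barcodes. With barcodes marked as doublets kept, the ratios were 1.37, 1.5 and 1.20. In classes with mixed markers Ppp1r15a went both ways, with intervals that span 1. It was 0.885 (endothelial and macrophage), 0.830 (macrophage and monocyte and dendritic) and 0.629 (T and NK and monocyte and dendritic). It was 1.29 (endothelial and stellate) and 1.09 (cholangiocyte and endothelial) in the others. The ratio of Atf3 was 1.56 in macrophage-like barcodes, from 96 WT and 265 HKO UMIs, against 0.605 in hepatocyte-like barcodes, and with doublets kept, when the class holds 69 WT and 106 HKO barcodes in place of 122 and 259, it was 0.429. Its direction in macrophage-like barcodes therefore depends on which barcodes the class holds.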

How the results depend on the processing

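No paired analysis was possible because each genotype had 1 library. Gdf15, Fgf21, Atf3, Atf4 and Sesn2 had ratios under 1 in hepatocyte-like barcodes in all 17 alternatives each, ranging from 0.310 to 0.546, 0.386 to 0.779, 0.423 to 0.799, 0.607 to 0.991 and 0.431 to 0.822. Ppp1r15a was under 1 in 16 of 17, with 1.03 within cluster 13. Ddit3 was under 1 in 15 of 17, with 1.03 under 5% mitochondrial UMIs and 1.48 within cluster 13. Trib3 turned to 1.43 with thinning to 1000 UMIs, 1.065 with barcodes weighted equally, 1.24 and 2.08 from 10 to 20% and 20 to 30% mitochondrial UMIs, 1.02 and 1.49 within clusters 5 and 8, and 1.18 without clusters 1 and 14. Chac1 turned to 2.04 from 20 to 30% and 1.085 within cluster 8. The intervals of these Trib3 and Chac1 ratios in bins and clusters span 1. From 20 to 30% they were 0.831 to 5.15 for Trib3 and 0.734 to 5.59 for Chac1. Asns had 0 WT and 2 HKO UMIs after thinning, too few for a ratio. With doublets kept, ratios turned to 0.980 for Atf3 in endothelial-like barcodes, and to 0.442 for Atf4, 0.751 for Ddit3 and 0.429 for Atf3 in macrophage-like barcodes. The median log2 ratio over all 10 members was −0.60. Without a depth minimum, the list of kinases and eIF2 genes turned to −0.11 and the receptors to 0.079, and the p53 list, −0.24 as described, moved to −0.40, or −0.42 from 1 CPM.

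The share ratio for any member was 0.698 without a depth minimum, 0.639 without thinning and 0.649 with 3000 UMIs. The mitochondrial difference between positive and negative barcodes was 0.696 points in HKO without a depth minimum, −0.385 in WT with 5000 UMIs in both libraries, −3.60 in WT and 0.0303 in HKO with the limit of 20%, and 2.77 in WT and 6.36 in HKO without thinning. With a minimum of 1 CPM, 184 genes were at least 2-fold lower and 141 at least 2-fold higher, against 71 and 26 with 10 CPM. The causes were not tested. Asns, Chac1, Trib3 and Sesn2 rest on few UMIs, and the WT and HKO depth minimums differ.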
